A study of Homo sapiens with 59 samples.

Results

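The 15 RNA sequencing libraries described here, of 59 in a WNT pulse experiment, are the 9 libraries of 10, 12 and 14 h of CHIR99021 and the 6 libraries of 6 and 8 h they were set against. The libraries were taken by the exposure time in their labels, the comparison itself having been proposed with earlier results of these data known, and each of the 5 time points had 3 libraries, labelled A1, A2 and B1. All were neural stem cells derived from the human embryonic stem cell line WA09, also called H9. Cells of every time point were first plated with the ROCK inhibitor Y27632 at 10 µM, which helps dissociated cells survive, and given FGF8b at 200 ng per mL. They were then replated with Y27632 and exposed to CHIR99021, an inhibitor of the kinase GSK3 that switches on canonical WNT signalling. At the stated hour an automated system changed the medium to one with retinoic acid, renewed daily, and the cells were lysed after 4 days in it. The hours are therefore lengths of the CHIR99021 pulse and not times of lysis after the same pulse, and pulse length and total culture time cannot be told apart. The experiment is a model from 1 cell line, and a group without CHIR99021 was not analysed here.

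The labels do not state that A1, A2 and B1 were independent cultures. The p-values below are thus about the scatter among these libraries, part of which may be technical. Deposited values are TPM, a length-scaled share of a library's transcripts, and keep no record of sequencing depth. The libraries of 10 to 14 h had 12497 to 12882 genes at 1 TPM or more. Those of 6 and 8 h had 11004 to 12854, and 8 h A2 (11004 genes) and 8 h B1 (11609 genes) stood apart from the other 13, which had at least 12497. The 100 highest genes held 26.8 to 32.2% of the TPM at 10 to 14 h and 25.4 to 30.4% at 6 and 8 h. Because both libraries that stood apart belong to the earlier group, results are given with and without them. Without them the 8 h mean rests on 1 library, which raises the SE, so a lost call need not mean a smaller difference.

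Of 9 neural progenitor markers, 7 were at 1 TPM or more in all 15 libraries (SOX2, PAX6, NES and CDH2 among them), and SOX1 and HES5 were not. SOX10 of neural crest, SOX17 of endoderm, TBX6 and MSGN1 of paraxial mesoderm and PTPRC of blood were listed at 0 in all 15. The summed TPM of 7 epithelial markers was 1047 to 1561 at 6 and 8 h and 472 to 1451 at 10 to 14 h. The sum of 4 markers of pluripotent cells was 1354 to 1788 and 1404 to 1789, respectively, most of it LIN28A, while POU5F1 was at most 20.5 TPM in any of the 15. The sum of 6 fibroblast and smooth muscle markers was 650 to 1051 TPM at 6 and 8 h and 367 to 1146 TPM at 10 to 14 h, with COL1A2 called lower. The 14 h A1 library was highest there, with TAGLN at 442 TPM and COL1A1 at 207 TPM, and also had the high keratins given below. Next was 8 h A2, with TAGLN at 425 TPM, COL1A1 at 150 TPM and ACTA2 at 91.5 TPM. The part of these cells in the results was not tested. In such bulk RNA, fewer cells of a type and less RNA per cell cannot be told apart.

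As background, WNT signalling together with FGF moves cells of the early neural lineage toward more posterior identities and opens the HOX clusters step by step, and retinoic acid then favours neural differentiation and anterior HOX genes. HOX genes encode transcription factors that record position along the body axis. Cells short of oxygen stabilise HIF transcription factors, which raise glucose uptake, glycolysis and lactate export, and HIF binds the core letters ACGTG in promoters and enhancers. MYC-type factors bind CACGTG, which contains those letters, and raise genes that build ribosomes.

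Differences were taken on the log2(TPM + 1) scale as the mean of 10, 12 and 14 h minus the mean of 6 and 8 h, which understates the change of low genes, and were tested with limma over 15305 genes. At a Benjamini-Hochberg adjusted p under 0.05, 510 genes differed, 3.33% of those tested. Of these, 287 were higher at 10 to 14 h (1.88% of genes tested) and 223 were lower (1.46%). These shares are the background for every count of list members below, and no list was tested as a set. A difference of at least 1 was reached by 111 of the higher genes (0.725%) and 67 of the lower genes (0.438%). The median difference of all genes was 0. Libraries of the 2 groups did not overlap for 84 genes that were higher (0.549%) and 138 that were lower (0.902%). Of these, 64 and 67 were called, so a lack of overlap was also seen in genes that did not pass. By limma's F-test over the 5 time points, 396 genes changed (2.59%). Without the 8 h A2 and B1 libraries, 137 genes differed between the windows, 74 higher and 63 lower, and 112 of these 137 were among the 510.

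The largest difference among the genes named by size was that of PFKFB4, an enzyme that sets the level of the glycolysis activator fructose 2,6-bisphosphate. It was at 0.46, 6.54 and 12.3 TPM (lowest, median and highest of 6 libraries) at 6 and 8 h and at 25.8, 55.0 and 65.1 TPM (of 9) at 10 to 14 h. The groups did not overlap, and the difference was 2.77 ± 0.30 (SE, adjusted p = 1.4e-08). SLC16A3, the lactate exporter MCT4, was at 5.88, 15.5 and 27.6 TPM in the earlier and 23.9, 88.4 and 137 TPM in the later libraries. Only its lowest later library, 10 h A1, fell inside the earlier range, and the difference was 2.28 ± 0.27 (adjusted p = 8.0e-08). Both kept their calls without 8 h A2 and B1, at 2.10 (adjusted p = 3.6e-05) and 2.29 (adjusted p = 5.4e-06).

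Of the 18 measured genes of a list of hypoxia response genes, 8 rose and none fell, and the median difference was 1.08 beside 0 for all genes. The 8 were BNIP3, BNIP3L, DDIT4, EGLN1, KDM3A, MXI1, P4HA1 and PDK1, and these 8 were also the ones called without 8 h A2 and B1. To show the stretch of DNA in which HIF-type letters can be looked for, the 250 bases before the start site of 4 of them are printed. These 4 are the called genes of the list in which the letters were found, so they do not stand for all 8. They are given 5′ to 3′ on the gene's strand, from RefSeq (GRCh38.p14). Capitals mark ACGTG or its reverse complement CACGT.
BNIP3 (chr10:131981924-131982173, minus strand): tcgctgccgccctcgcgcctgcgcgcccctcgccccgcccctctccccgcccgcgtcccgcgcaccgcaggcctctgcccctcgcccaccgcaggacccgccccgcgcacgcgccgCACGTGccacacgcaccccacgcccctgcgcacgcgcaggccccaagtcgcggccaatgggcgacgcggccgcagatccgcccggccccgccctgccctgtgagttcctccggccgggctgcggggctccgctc
P4HA1 (chr10:73096867-73097116, minus strand): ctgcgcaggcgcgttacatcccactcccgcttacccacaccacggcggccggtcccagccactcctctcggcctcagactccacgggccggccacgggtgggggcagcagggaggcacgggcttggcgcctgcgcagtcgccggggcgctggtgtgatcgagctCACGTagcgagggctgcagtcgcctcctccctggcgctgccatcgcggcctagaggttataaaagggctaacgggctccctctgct
DDIT4 (chr10:72273674-72273923, plus strand): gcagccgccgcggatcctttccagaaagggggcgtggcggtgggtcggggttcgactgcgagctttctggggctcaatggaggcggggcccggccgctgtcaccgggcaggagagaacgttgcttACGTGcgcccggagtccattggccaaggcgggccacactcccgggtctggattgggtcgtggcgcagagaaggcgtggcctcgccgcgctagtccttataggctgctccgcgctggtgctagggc
EGLN1 (chr1:231422288-231422537, minus strand): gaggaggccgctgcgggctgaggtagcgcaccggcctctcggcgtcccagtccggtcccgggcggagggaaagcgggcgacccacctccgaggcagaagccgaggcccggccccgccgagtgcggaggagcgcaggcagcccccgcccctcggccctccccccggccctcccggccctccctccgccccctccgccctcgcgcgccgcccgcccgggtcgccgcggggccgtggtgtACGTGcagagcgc

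In BNIP3 the capitals overlap as CACGTG, which counts once on each strand. In windows from 250 bases before to 50 after the start site, ACGTG on either strand was found in 21.4% of all 35116 RefSeq promoters. It was present in 25.5% of the 12387 tested genes with such a window, in 32.6% of the 230 higher genes that had one and in 23.2% of the 164 lower genes. Among hypoxia genes 8 of 15 windows held it (53.3%), of which CA9, ANKRD37, ERO1L and BHLHE40 were not called, and KDM3A, MXI1 and PDK1 were called without it there. BNIP3L, also called, was not among the 15 windows. The share was 75% (6 of 8) for HOX groups 1 to 4, 42.9% (6 of 14) for ribosome biogenesis, 40% (8 of 20) for glycolysis and 38.9% (7 of 18) for mitosis. The longer CACGTG, which overlaps it, was in 7.26% of all promoters and in 3 of the 15 windows. A match describes letters and not binding, and a window without one leaves other regions unread.

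BNIP3, a mitochondrial protein that promotes mitophagy, was at 50.4, 90.0 and 145 TPM at 6 and 8 h and at 250, 341 and 467 TPM at 10 to 14 h. No library of one group reached the other, and the difference was 1.96 ± 0.14 (adjusted p = 1.4e-13). P4HA1, a subunit of collagen prolyl hydroxylase, was at 46.1, 70.9 and 135 TPM and then at 167, 293 and 367 TPM. Its groups were likewise apart, by 1.92 ± 0.14 (adjusted p = 1.2e-13). DDIT4, an inhibitor of mTORC1 signalling, had already gone from a mean of 96.6 TPM after 6 h to 313 TPM after 8 h (difference 1.65, adjusted p = 7.7e-05) and stood at 504 to 542 TPM at 10, 12 and 14 h. KDM3A, a histone H3 lysine demethylase, was at 26.9, 35.9 and 61.5 TPM early and 94.1, 122 and 137 TPM later, with a difference of 1.53 ± 0.14. EGLN1, the oxygen sensor that marks HIF for destruction, was at 18.0, 27.3 and 35.6 TPM and then at 50.3, 63.1 and 73.8 TPM, a difference of 1.18 ± 0.19 (adjusted p = 4.6e-05). PDK1, the kinase that restrains pyruvate dehydrogenase, overlapped between the groups, since its 10 h libraries were at 42.9 to 51.6 TPM and 8 h A2 was at 59.2 TPM, and it differed by 1.17 ± 0.15 (adjusted p = 9.3e-07).

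Other genes of that list did not pass. VEGFA, the vascular growth factor, was at 47.2 ± 14.2 TPM (SD, n = 6) and 40.5 ± 7.39 TPM (SD, n = 9), a difference of -0.18 (adjusted p = 0.80 by limma). ADM, which encodes the peptide adrenomedullin, was at 19.4 ± 16.6 and 21.6 ± 13.4 TPM (adjusted p = 0.64). CA9, a carbonic anhydrase, had a median listed at 0 at 6 and 8 h and was at most 3 TPM in any of the 15 libraries. NDRG1 fell from a mean of 71.25 TPM after 6 h to 25.9 TPM after 8 h (-2.19, limma adjusted p = 0.042). It was at 33.0, 26.0 and 38.2 TPM after 10, 12 and 14 h. Of the 18 differences of the list, 14 were positive and 4 negative, and without the 8 h time point 8 members were higher and 1 was lower.

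Glycolysis genes were mostly higher: 11 of 21 were higher and 1 was lower, with a median difference of 0.47. Without 8 h A2 and B1, 7 were higher and 1 lower. The glucose transporter SLC2A1 was at 56.2, 92.7 and 121 TPM at 6 and 8 h and at 186, 297 and 325 TPM at 10 to 14 h. Its groups were apart by 1.57 ± 0.14 (adjusted p = 4.2e-11). HK2, the hexokinase that traps glucose, was at 40.9, 48.5 and 66.9 TPM and then at 86.0, 101 and 131 TPM, again without overlap (1.03 ± 0.18, adjusted p = 2.0e-04). LDHA, which makes lactate, went from 816 to 1260 TPM in the earlier libraries to 1330 to 2412 TPM in the later ones (0.77 ± 0.12, adjusted p = 5.3e-05). ENO2, PGAM1, SLC2A3, PFKFB3, GPI and PKM2 rose by 0.47 to 0.77, and the last 3 and SLC2A3 did not pass without 8 h A2 and B1. PFKP, the platelet-type phosphofructokinase, went the other way, from 94.2 ± 22.5 TPM (SD, n = 6) to 59.2 ± 19.7 TPM (SD, n = 9; -0.70, limma adjusted p = 0.0055).

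**Figure D1:**
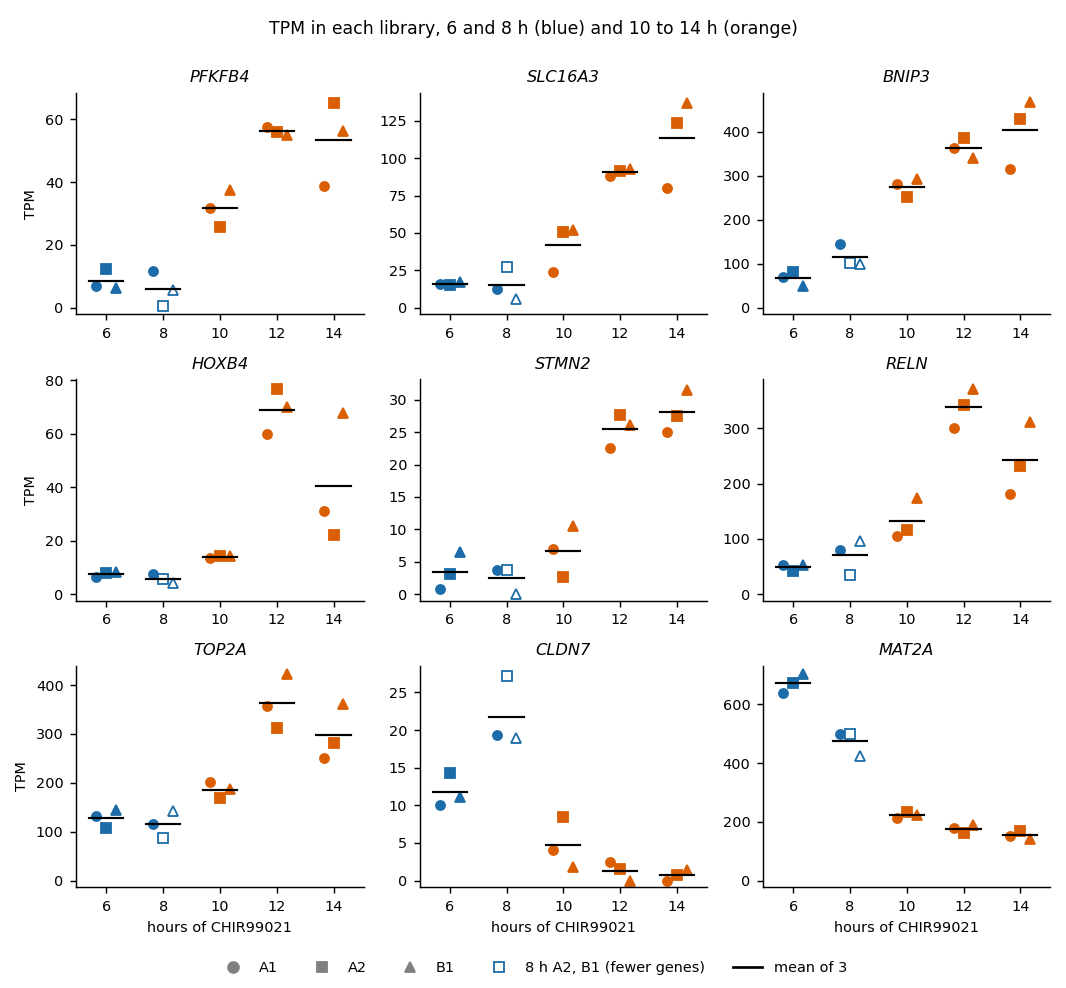
TPM of 9 genes in each of the 15 libraries against hours of CHIR99021 (circles A1, squares A2, triangles B1, bars the mean of 3; open symbols the 8 h A2 and B1 libraries, which had fewer genes at 1 TPM or more). PFKFB4, BNIP3, HOXB4, RELN and TOP2A in all 9 later libraries lie above all 6 earlier ones, and CLDN7 and MAT2A lie below.

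Of 19 ribosome biogenesis factors, 6 were lower and none was higher, with a median difference of -0.55. They were DKC1, GNL3, NOP56, POLR1B, RRP12 and RRS1. GNL3, the nucleolar protein nucleostemin, was at 268, 327 and 442 TPM at 6 and 8 h and at 159, 179 and 202 TPM at 10 to 14 h. The groups did not overlap (-0.90 ± 0.19, adjusted p = 0.0029). RRS1, which helps assemble the large ribosomal subunit, was at 44.1, 73.4 and 102 TPM and then at 12.9, 21.5 and 38.2 TPM, also without overlap (-1.59 ± 0.41, adjusted p = 0.017). The abundant nucleolar proteins NPM1 and NCL were at 4039 ± 460 and 1831 ± 237 TPM (SD, n = 6) early and differed by 0.05 (adjusted p = 0.89) and -0.12 (adjusted p = 0.78, limma). Without the 6 h time point none of the 19 was lower and 1 was higher, and without 8 h A2 and B1 only NOP56 was (-0.75, adjusted p = 0.027). MYC, a driver of such genes, was at 20.6 ± 9.37 and 32.7 ± 7.73 TPM (adjusted p = 0.095, limma).

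The metabolic enzymes MAT2A and PMM2 were lower without overlap of libraries. MAT2A, which makes the methyl donor S-adenosylmethionine, was at 424, 569 and 703 TPM at 6 and 8 h and at 142, 179 and 232 TPM at 10 to 14 h. It differed by -1.62 ± 0.30 (adjusted p = 5.4e-04) and by -1.66 without 8 h A2 and B1 (adjusted p = 0.022). PMM2, which supplies mannose 1-phosphate for glycosylation, was at 34.1, 63.0 and 69.0 TPM and then at 10.2, 18.8 and 24.7 TPM. Its difference was -1.62 ± 0.28 (adjusted p = 2.5e-04), and -1.39 without those libraries (adjusted p = 0.046).

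Of 22 mitosis genes, 12 rose at 10 to 14 h and none fell, all 22 differences were positive, and their median was 0.70. Without 8 h A2 and B1, 7 were called, KIF20A and NUSAP1 in addition to 5 of the 12. TOP2A, the topoisomerase that untangles chromosomes, was at 86.8, 124 and 144 TPM at 6 and 8 h and at 169, 281 and 423 TPM at 10 to 14 h. No libraries overlapped (1.16 ± 0.12, adjusted p = 6.3e-09). AURKB, the kinase of the chromosomal passenger complex, was at 37.6, 49.6 and 66.0 TPM and then at 68.7, 112 and 148 TPM (1.06 ± 0.19, adjusted p = 3.1e-04). The kinase PLK1 overlapped between groups and rose by 1.06 ± 0.23, but with 8 h A2 and B1 left out its adjusted p was 0.23. CCNB1, cyclin B1, was at 176 ± 54.6 and 202 ± 35.4 TPM (adjusted p = 0.46, limma). Of 24 DNA replication genes, 2 were higher (POLA1 and TYMS), with a median difference of 0.16, and none of them was called without 8 h A2 and B1.

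Of 12 anterior HOX genes in paralog groups 1 to 4, 6 were higher (HOXB2, HOXB3, HOXB4, HOXC4, HOXD3 and HOXD4) and none was lower, with a median difference of 0.93. Without 8 h A2 and B1, HOXB3 and HOXB4 were called. HOXB4 was at 4.16, 7.03 and 8.22 TPM at 6 and 8 h and at 13.4, 31.2 and 76.7 TPM at 10 to 14 h. All 9 later libraries were above all 6 earlier ones, by 2.17 ± 0.26 (adjusted p = 1.2e-07). The step was not even: the 10 h libraries were at 13.4 to 14.4 TPM, those of 12 h at 60.1 to 76.7 TPM and those of 14 h at 21.9 to 67.9 TPM. HOXB3 was at 18.1, 21.3 and 39.7 TPM and then at 26.3, 50.5 and 76.6 TPM, with overlap (0.93 ± 0.20, adjusted p = 0.0039). HOXD4, the member with the highest level in both groups, was at 104 ± 40.9 TPM (SD, n = 6) and 181 ± 28.5 TPM (SD, n = 9; limma adjusted p = 0.0062), its lowest value being 26.6 TPM in 8 h A2.

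Among 11 measured HOX genes of paralog groups 5 to 9, HOXB5 and HOXB8 rose. HOXB8 was listed at 0 in all 6 earlier libraries and in all 3 at 10 h. It was at 1.18 to 4.79 TPM at 12 h and at 3.91 to 6.96 TPM at 14 h (adjusted p = 7.9e-05, and 0.0063 without 8 h A2 and B1). HOXC4 was likewise listed at 0 through 10 h and was at 2.16 to 3.01 TPM at 12 h. HOXB5 had a median listed at 0 at 6 and 8 h and of 10.1 TPM at 10 to 14 h (adjusted p = 0.004). Its range reached 5.59 TPM in the earlier libraries and went down to 1.86 TPM in the later ones. Without 8 h A2 and B1 HOXB5 did not pass, although its difference stayed at 2.49. HOXB9 was listed at 0 in all 15 libraries.

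ALDH1A1 encodes a retinaldehyde dehydrogenase, a source of retinoic acid, and was at 322 ± 89.9 TPM (SD, n = 6) at 6 and 8 h and at 719 ± 189 TPM (SD, n = 9) at 10 to 14 h. No libraries of the groups overlapped (1.18 ± 0.22, limma adjusted p = 5.1e-04). Of 18 genes of the retinoic acid pathway, 2 were higher and none was lower, and none was called without 8 h A2 and B1, where ALDH1A1 had 0.92 (limma adjusted p = 0.088). Of 16 dorsal neural tube genes, PAX3, WNT1, ZIC1 and ZIC2 rose and none fell. PAX3 was at 84.4, 117 and 136 TPM and then at 133, 196 and 268 TPM, so that 1 later library lay within the earlier range (0.68 ± 0.13, adjusted p = 7.1e-04). It alone of the 4 passed without 8 h A2 and B1. OTX2, a regulator of forebrain and midbrain, was at 0 to 8.42 TPM early and had a median listed at 0 later (-1.50 ± 0.27, adjusted p = 3.0e-04). EMX2, a forebrain transcription factor, was listed at 0 in all 6 earlier libraries and at 0.37 to 5.76 TPM in the later ones (adjusted p = 0.013), and did not pass without 8 h A2 and B1 (adjusted p = 0.17).

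**Figure D2:**
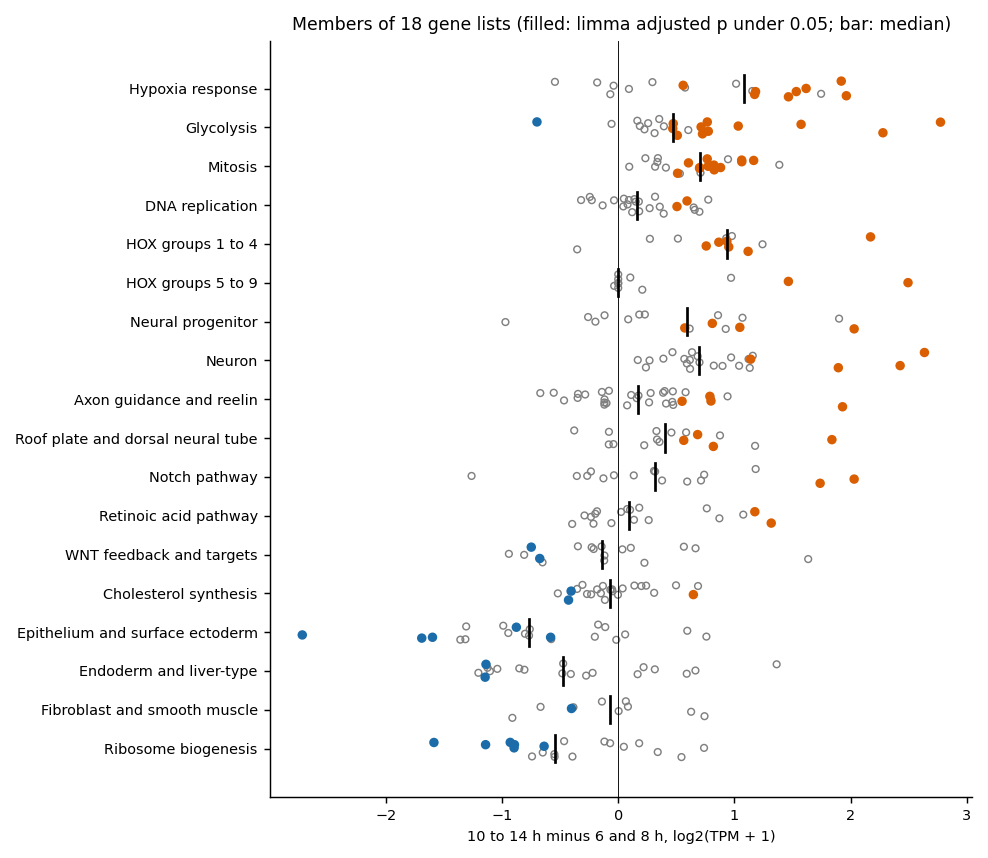
Differences of the members of 18 gene lists between 10 to 14 h and 6 and 8 h on the log2(TPM + 1) scale (each point a gene, vertical jitter only for display; filled orange called higher, filled blue called lower, open not called; bars the medians). All 22 mitosis genes and all 23 neuron genes lie to the right of 0, and the 6 ribosome biogenesis genes called lie to the left.

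Of 23 neuronal genes, STMN2, TAGLN3, INA and ELAVL3 were higher and none was lower, all 23 differences were positive, and the median was 0.70. TUBB3 turned from 0.17 to -0.13 without 8 h A2 and B1. STMN2, a regulator of microtubules in growing axons, was at 0, 3.40 and 6.52 TPM early and at 2.73, 25.1 and 31.6 TPM later. Only the 10 h A2 library was at an earlier level, with the 10 h A1 library at 6.91 TPM just above it, and the difference was 2.42 ± 0.35 (adjusted p = 9.4e-06). STMN2 kept its call without 8 h A2 and B1 (2.05, adjusted p = 0.0049), and the other 3 did not. TAGLN3 and INA were each listed at 0 in 8 h A2, and ELAVL3 in every 8 h library. ELAVL3 was low throughout, at most 0.49 TPM in the earlier libraries and 0 to 3.98 TPM in the later ones. DCX, a protein of migrating neurons, was at 10.8 ± 6.95 and 12.2 ± 4.12 TPM (adjusted p = 0.80, limma).

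RELN, the secreted glycoprotein that guides neuron layering, was at 34.4, 53.2 and 95.6 TPM at 6 and 8 h and at 104, 231 and 371 TPM at 10 to 14 h. No library overlapped (1.93 ± 0.23, adjusted p = 1.2e-07; 1.77 and 8.6e-05 without 8 h A2 and B1). Its receptor VLDLR was at 60.1 ± 11.3 and 88.0 ± 13.7 TPM (0.55, limma adjusted p = 0.024). The guidance genes EPHA7 and EFNA5 rose by 0.79 and 0.80, which made 4 of 31 genes of that list higher and none lower. RELN alone passed without 8 h A2 and B1.

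Of 16 neural progenitor genes, 4 were higher and none was lower. POU3F2, a POU-domain transcription factor, was at 5.82, 7.70 and 11.4 TPM early and 8.32, 18.2 and 34.9 TPM later, its 10 h libraries lying within the earlier range (1.05 ± 0.19, adjusted p = 3.1e-04). SOX3, PTPRZ1 and HES5 were the others, and POU3F2 alone passed without 8 h A2 and B1. PAX6 was at 198 ± 32.0 TPM (SD, n = 6) and 223 ± 22.8 TPM (SD, n = 9; limma adjusted p = 0.39), and SOX2 at 30.6 ± 7.36 and 48.3 ± 14.2 TPM (adjusted p = 0.50). The transcription factor RFX4, not on that list, was at 3.08, 6.22 and 11.5 TPM and then had a median of 37.5 and a highest value of 52.9 TPM. Only its lowest later library, 10 h A1, fell inside the earlier range (2.12 ± 0.22, adjusted p = 4.5e-09), and the difference was 2.39 without 8 h A2 and B1. NDNF, a secreted neurotrophic factor, was at 0, 7.64 and 8.82 TPM and then at 13.8, 37.5 and 60.6 TPM (2.47 ± 0.40, adjusted p = 7.9e-05). NELL1, a secreted protein, had gone from a mean of 4.55 TPM after 6 h to 19.2 TPM after 8 h (adjusted p = 0.028) and was at 38.0 to 55.9 TPM at the 3 later time points.

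Of 21 epithelial genes, CLDN7, EPCAM, ESRP1, GATA3 and KRT8 fell and none rose, and the median difference was -0.77. The tight junction protein CLDN7 had the largest fall among the genes named by size, from 10.1, 16.6 and 27.2 TPM at 6 and 8 h to 0, 1.49 and 8.47 TPM at 10 to 14 h. All 9 later libraries were below all 6 earlier ones, by -2.72 ± 0.30 (adjusted p = 2.8e-08; -2.64 and 3.4e-05 without 8 h A2 and B1). EPCAM, an epithelial adhesion molecule, was at 123, 165 and 220 TPM and then at 50.9, 95.6 and 142 TPM, with overlap through the 10 h libraries (-0.88 ± 0.20, adjusted p = 0.007). ESRP1, a splicing regulator of epithelial cells, was at 7.42, 10.5 and 14.0 TPM and then at 0, 3.41 and 8.26 TPM (-1.69 ± 0.33, adjusted p = 0.001), and had an adjusted p of 0.061 without 8 h A2 and B1. E-cadherin, CDH1, was at 36.7 ± 18.0 TPM (SD, n = 6) and 13.6 ± 7.45 TPM (SD, n = 9) and did not pass (-1.31, limma adjusted p = 0.14). KRT8, an intermediate filament keratin, was at 341 to 395 TPM at 12 h and at 1028 TPM in 14 h A1, close to the highest earlier value of 1030 TPM. KRT18, its partner keratin, was also highest in 14 h A1, at 288 TPM against 51.6 to 215 TPM in the other 14 libraries. Without 8 h A2 and B1, 4 epithelial genes were lower: CLDN7, EPCAM, GRHL2 and OVOL1. The count of lower genes was 1 without the 12 h time point, 2 without 6 h (with 1 higher) and 5 without 8 h. GATA3 kept its call in 14 of 31 alternatives.

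APOB and FGA, a lipoprotein and a fibrinogen chain made by liver-type cells, were the 2 lower genes among 19 of endoderm. APOB was at 6.77, 9.85 and 11.3 TPM and then at 2.60, 2.96 and 7.18 TPM (-1.14 ± 0.30, adjusted p = 0.018), and neither gene was called without 8 h A2 and B1, where APOA2 was the 1 lower gene of the list. The summed TPM of the 7 endoderm markers was 122 to 244 at 6 and 8 h and 48.7 to 173 at 10 to 14 h, and its part in the results was not tested. CDH5, the cadherin of endothelial cells, was at 10.8, 18.8 and 26.4 TPM and then at 0, 3.44 and 14.6 TPM (-1.90 ± 0.45, adjusted p = 0.0083; 0.24 without 8 h A2 and B1), while the blood marker PTPRC was at 0 throughout. Neither the pluripotency genes (12 measured) nor those of paraxial mesoderm and somites (9) had a member that passed.

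Of 17 WNT feedback genes and targets, CCND1 and SFRP2 were lower and none was higher. AXIN2, the common readout of WNT signalling, was at 55.9 ± 15.4 TPM (SD, n = 6) and 63.9 ± 9.57 TPM (SD, n = 9; limma adjusted p = 0.69), measured after 4 days in retinoic acid. CCND1, cyclin D1, ranged from 186 to 261 TPM after 6 h, from 98.9 to 135 TPM after 8 h and from 78.6 to 129 TPM in the later window, so that most of its fall lay between 6 and 8 h (-0.97, adjusted p = 0.023), and its window difference had an adjusted p of 0.086 without 8 h A2 and B1. SFRP2, a secreted WNT antagonist, was at 603 ± 199 TPM (SD, n = 6) and 348 ± 81.9 TPM (SD, n = 9; -0.75, limma adjusted p = 0.0097). In the Hedgehog pathway the coreceptors BOC and GAS1 and the effector GLI2 rose and the target GLI1 fell among 12 genes, and none of the 4 was called without 8 h A2 and B1. In the BMP list of 14, ID3, an inhibitor of bHLH factors, was higher (0.78 ± 0.15, adjusted p = 6.4e-04), but its 8 h A2 and B1 values of 75.7 and 92.3 TPM were far below the 197 to 228 TPM of the other 4 earlier libraries. Without these it had 0.34 (adjusted p = 0.52). The immediate early, amino acid response and oxidative stress lists, with 18, 15 and 13 measured genes, had no member past the threshold.

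Between neighbouring time points few genes passed. From 6 to 8 h, 90 genes differed (0.588%), 27 higher (0.176%) and 63 lower (0.412%), beside a median of all genes of -0.12. A lone 8 h library is left without 8 h A2 and B1, which is assumed to vary like the other time points, and 6 genes differed. From 8 to 10 h, 15 differed (0.098%), 12 higher (0.0784%) and 3 lower (0.0196%), and 5 with that lone library. Among the 12 were P4HA1 (1.26), BNIP3 (1.26), KDM3A (1.17), SLC2A1 (1.49), SLC2A3 (1.02) and PFKFB4 (2.69), and CLDN7 was among the 3 (-2.13). From 10 to 14 h, 2 differed (0.0131%), 1 in each direction (0.00653%): HOXB8, listed at 0 before, and the endoplasmic reticulum chaperone HSPA5, which fell by 1.16. These steps share libraries with the comparison of the windows and with each other.

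The pulses of 30 and 36 h, and of 54 and 60 h, are those of 6 and 12 h plus 1 and 2 days. The windows also take in 8, 10 and 14 h, so the contrasts span unlike hours. The pulses of the later days share no library with the windows above. All contrasts come from 1 fit, however, in which each gene has 1 estimate of spread over all 59 libraries. A gene with little spread is thus more readily called in each contrast, and the background shares below make no allowance for that. In 36 h minus 30 h, 294 genes differed (1.92% of those tested; 121 higher, 173 lower). In 60 h minus 54 h, 698 did (4.56%; 211 higher, 487 lower). Of the 287 genes higher at 10 to 14 h, 52 (18.1%, background 0.791%) were also higher at 36 h, and none was lower there. These 52 are 43.0% of the 121 (background 1.88%). Of the 223 lower genes, 73 (32.7%, background 1.13%) were also lower at 36 h, and 1 was higher. These 73 are 42.2% of the 173 (background 1.46%). At 60 h the same call was made for 60 of the higher genes (20.9%; background 1.38%), with 6 opposite, and for 91 of the lower ones (40.8%; background 3.18%), with 3 opposite. Among the 74 higher and 63 lower genes left without 8 h A2 and B1, 30 and 20 had the same call at 36 h.

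BNIP3 had time-point means of 290 TPM after 2 h of CHIR99021, 67.2 TPM after 6 h and 403 TPM after 14 h. Its mean went from 62.0 TPM to 411 TPM between 30 and 36 h (2.73, adjusted p = 1.2e-11) and from 59.4 TPM to 468 TPM between 54 and 60 h (2.95, adjusted p = 7.8e-13). The hypoxia list had 8 of 18 genes higher at 36 h and 11 at 60 h, and the glycolysis list 13 and 12 of 21, with none lower on either day. PFKFB4 rose by 4.09 and 4.28 there and SLC16A3 by 3.50 and 2.90. PDK1 had a smaller difference between the windows than in 36 h minus 30 h, by -1.39 (limma adjusted p = 0.029). The windows take in 8 and 10 h, where its means were 43.2 and 46.4 TPM. After 6 and 12 h its means were 29.4 and 104 TPM, beside 27.3 and 159 TPM after 30 and 36 h. PFKP, which fell at 10 to 14 h, had 0.46 at 36 h (adjusted p = 0.45) and rose by 1.52 at 60 h.

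MAT2A had means of 125 TPM after 2 h, 671 TPM after 6 h and 154 TPM after 14 h. Its mean fell from 713 TPM to 131 TPM between 30 and 36 h and from 544 TPM to 105 TPM between 54 and 60 h. Both later falls passed (-2.44, adjusted p = 0.0011, and -2.37, adjusted p = 8.8e-04). Ribosome biogenesis genes had 7 of 19 lower and none higher on each later day, with median differences of -1.04 and -1.13. PMM2 fell by 2.38 at 36 h and by 3.98 at 60 h.

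Among the HOX genes, HOXB4 had -0.05 at 36 h, and the contrasts differed by 2.22 (adjusted p = 0.039). HOXB9, listed at 0 in all 15 libraries above, passed the same test the other way (-2.60, adjusted p = 0.029), with means of 1.33 TPM at 30 h and 12.7 TPM at 36 h. CLDN7 was listed at 0 in the means of 30, 36, 54 and 60 h, so it had no change there to compare. STMN2 had 0.88 (adjusted p = 0.56) at 36 h and RELN went from a mean of 234 to 512 TPM (adjusted p = 0.099), and for neither did the contrasts pass the test of their difference (adjusted p = 0.77 and 0.90). Of the 22 mitosis genes none passed at 36 h and 2 at 60 h. In all, 11 genes (0.0719%) passed the test of the difference between the 10 to 14 h and the 36 h contrasts, and none did without 8 h A2 and B1, where 774 had an unadjusted p under 0.05 with limma.

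**Figure D3:**
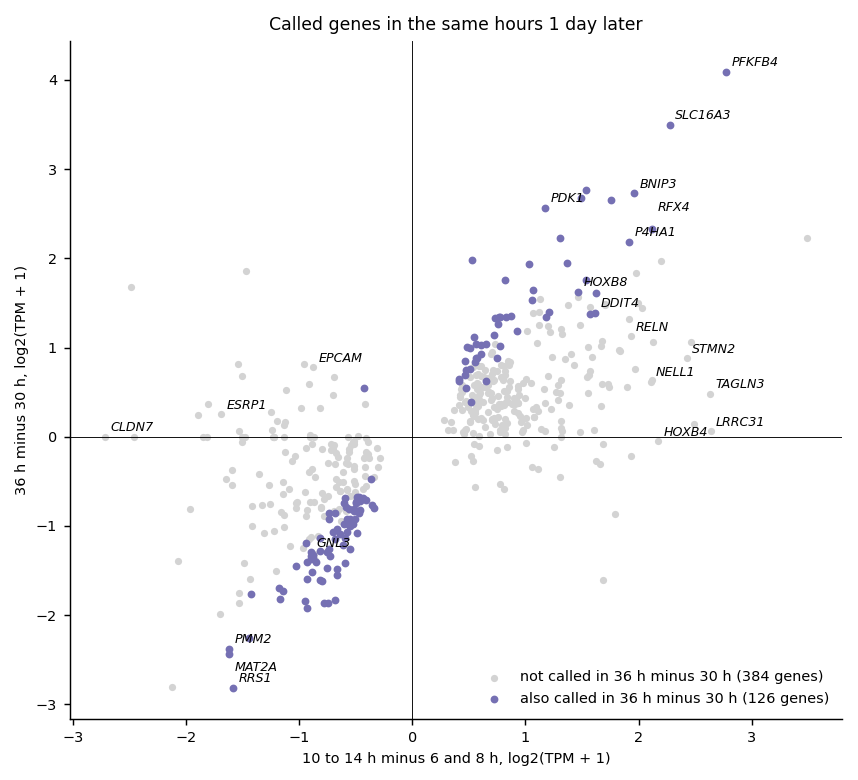
The 510 genes called between 10 to 14 h and 6 and 8 h, with that difference on the x axis and 36 h minus 30 h on the y axis (log2(TPM + 1) scale; purple the 126 genes also called in the latter, grey the other 384). The labelled hypoxia and glycolysis genes lie at the upper right, MAT2A, PMM2 and RRS1 at the lower left, and HOXB4 and CLDN7 near 0 on the y axis.

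**Figure D4:**
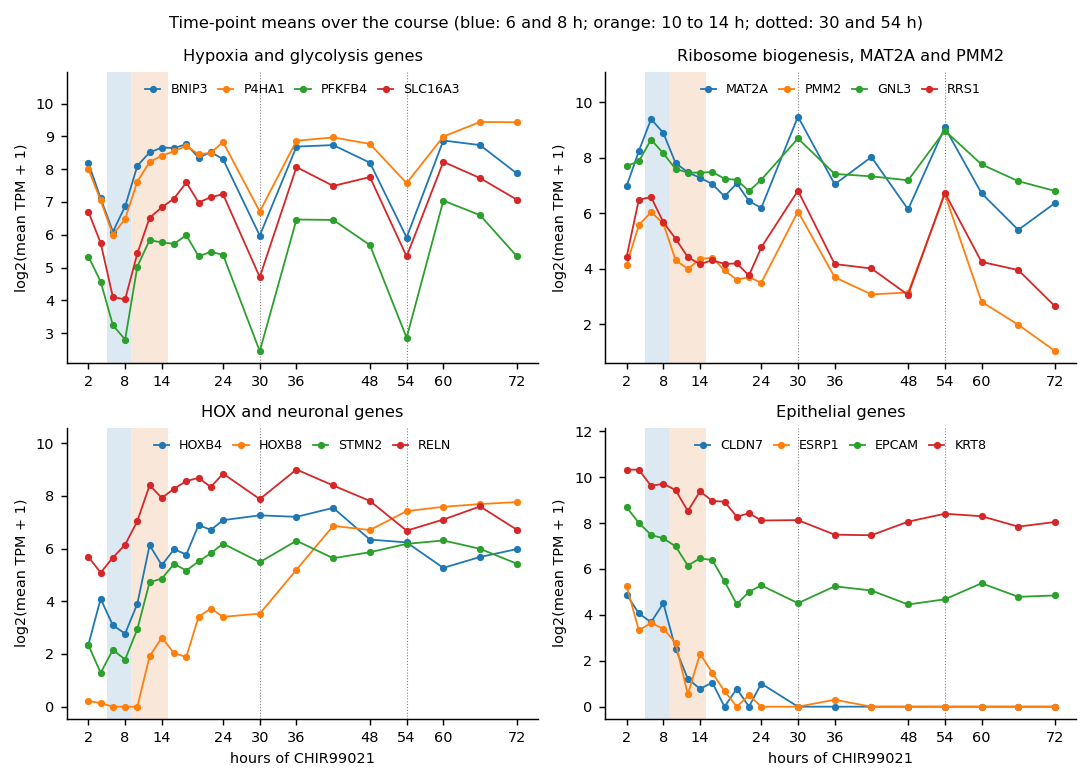
Time-point means of 16 genes over the 20 pulse lengths, as log2 of mean TPM + 1 against hours of CHIR99021 (blue band 6 and 8 h, orange band 10 to 14 h, dotted lines 30 and 54 h). BNIP3, P4HA1, PFKFB4 and SLC16A3 dip at 6 to 8, 30 and 54 h while MAT2A, PMM2, GNL3 and RRS1 peak near them, and CLDN7 and ESRP1 decline to near 0.

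The next hours are given beside these values, although 16 to 24 h minus 10 to 14 h shares the 9 later libraries. In that contrast 860 genes differed (5.62%), 490 higher (3.2%) and 370 lower (2.42%). HOXB4 rose by a further 1.39 (adjusted p = 6.4e-06), STMN2 by 1.46 (adjusted p = 3.8e-04), RELN by 0.74 (adjusted p = 0.0074) and TOP2A by 0.76 (adjusted p = 4.4e-07). EPCAM fell by 1.19 and ESRP1 by 1.39. BNIP3 (0.10, adjusted p = 0.79), PFKFB4 (0.01, adjusted p = 0.99) and GNL3 (-0.33, adjusted p = 0.25) did not pass.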

How the data were processed

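Messenger RNA was selected with oligo-dT beads from 100 ng of total RNA, ligated to adapters, amplified by 18 PCR cycles and read as single 51 bp reads, 30 libraries to a lane, per the labels' protocols. The sources used here do not give each library's lane. CASAVA 1.8.2, Bowtie 0.12.8, RSEM 1.2.3 and the hg19 build are named in the submitters' processing notes. The authors deposited TPM for 19084 gene symbols, and each library summed to 999997 to 1000001. RSEM shares reads among similar genes, so values of paralogs and overlapping genes are uncertain.

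Groups came from the labels. With limma 3.58.1 under R 4.3.3, a linear model was fitted to log2(TPM + 1) (intensity trend, Benjamini-Hochberg adjustment over all genes tested), with 20 time-point means over all 59 libraries and 39 residual df, for the 15305 genes with at least 1 TPM in at least 3 libraries. The tests were tried on simulated data. The members, the comparisons and the 39 gene lists (626 genes, of which 583 passed the filter and 43 did not) were chosen with earlier results of these data known. Named were the 15 highest and 15 lowest genes called genes whose mean reached 5 TPM in 1 window and whose time-point means do not overlap, up to 5 members per list with the lowest p, and members that did not pass or went against their list. Alternatives varied the pseudocount, filter, scaling, replicate block and libraries. Promoters were read from RefSeq (GRCh38.p14). Figures used matplotlib 3.10.9 in Python 3.11.15. Some members are not reported here.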

Additional observations from a re-analysis of the deposited data

Results flagged for a closer look

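Among the 30 genes named for the size of their difference, each window was examined for a single library far from the rest. Of 60 windows of 6 or 9 libraries, 6 held one. The limit used gives about 1 in 20 for normally distributed values of 1 group. These windows pool time points and the genes were picked by size, so that rate is no yardstick here. At 6 and 8 h the 8 h A2 library stood apart for PFKFB4 (0.46 TPM), NDNF (0 TPM) and PHACTR1 (16.9 TPM), each time below the others. At 10 to 14 h, 14 h A1 was low for HOXB5 (1.86 TPM) and high for AGAP5 (4.73 TPM), and 10 h A1 was high for COMTD1 (3.62 TPM).

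The change between 6 and 8 h and 10 to 14 h differed from that between 30 and 36 h, by limma's test of the difference, for HOXB4 (2.22, adjusted p = 0.039), CLDN7 (-2.72, adjusted p = 0.030), ID3 (1.31, adjusted p = 0.030), PDK1 (-1.39, adjusted p = 0.029) and HMGCS1 (-0.97, adjusted p = 0.0077). HMGCS1, an enzyme of cholesterol synthesis, fell by 0.43 in the first and rose by 0.54 in the second, and ID3 rose by 0.78 in the first. CLDN7 was listed at 0 at 30 and 36 h, so its value only restates its change at 10 to 14 h. The contrasts span unlike hours, since the windows average several time points and the other is a single step. None of these 5 differences passed without 8 h A2 and B1.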

How the results depend on the processing

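The count of 510 genes was 976 when only the 15 libraries were fitted (40.3% of calls higher, against 56.3%; 398 genes shared). It was 107 to 271 without one replicate label throughout and 334 to 771 without one library (334 without 6 h A1, 771 without 8 h A1). Without the 6 h time point it was 413 (71.4% of calls higher), with only 231 of the 510 kept. Without the 8 h time point it was 354 (47.5% higher), with 242 kept. The count was 565 without 10 h, 177 without 12 h, 234 without 14 h and 137 without 8 h A2 and B1. It was 1326, with all 510 kept, without the series' 3 libraries of under 10000 genes, none of them among the 15. The last 2 alternatives were chosen after seeing the data. Quantile normalization gave 718 and the replicate block 500. Libraries of the same label were correlated only weakly once time-point means were removed (30 pairs, r of -0.02 to 0.06, mean 0.01). Yet 11 of 15 libraries were closest to their own label, so a small effect of the label remains possible. Of 952 values of the 30 genes named by size, 781 stayed called, 171 did not and 0 reversed. PFKFB4, LRRC31, NDNF, STMN2, SLC16A3, HOXB4, RFX4 and CLDN7 passed under every alternative run.

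Only the libraries compared gave 1 call for 8 h minus 6 h, 4 for 10 h minus 8 h, 1 for 14 h minus 10 h, 2288 for 16 to 24 h, 124 for 36 h minus 30 h and 23 for the difference of contrasts. Leaving out 1 replicate label gave 2 to 83 for 8 h minus 6 h, 2 to 42 for 10 h minus 8 h, 1 to 5 for 14 h minus 10 h, 204 to 758 for 16 to 24 h, 57 to 186 for 36 h minus 30 h, 127 to 535 for 60 h minus 54 h, 80 to 162 for any change over 6 to 14 h (396 genes) and 0 to 5 for the difference of contrasts (0 without A2, with 595 at an unadjusted limma p under 0.05). For 10 h minus 8 h there were 26 calls at a pseudocount of 0.1 TPM, 24 without a filter, 29 with quantile and 37 with median-ratio scaling. For 14 h minus 10 h there were 8 without a filter, 6 at a mean of at least 5 TPM and 10 with either scaling. The difference of contrasts had 7 at a pseudocount of 0.1 TPM. Without 8 h A2 and B1 the counts were 6, 5 and 4 for the 3 steps, 244 for any change and 0 for the difference of contrasts. Without the libraries of under 10000 genes they were 688, 225 and 22 for the steps, 1816 for 16 to 24 h, 878 for 36 h minus 30 h, 1732 for 60 h minus 54 h, 1381 for any change and 62 for the difference. The causes were not tested. TPM keep no depth, so no detection limit is given.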

Other observations

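Some gene lists not described above had 1 to 3 members past the threshold. The heat shock genes HSP90AA1 and HSPA8 were higher and no other of 11 passed, and HSPA8 did not pass without 8 h A2 and B1 (adjusted p = 0.063). Of 11 endoplasmic reticulum chaperones, HSP90B1 rose and HSPA5 and HERPUD1 fell, of which HSPA5 alone passed without those libraries (adjusted p = 0.047). Of 23 cholesterol synthesis genes, 1 was higher (FDPS) and 2 were lower, HMGCS1 among them, with none called without 8 h A2 and B1, and in 60 h minus 54 h 12 were higher and none lower. The clock genes RORA and NR1D2 went up and down, respectively, among 14, and neither passed without 8 h A2 and B1 (adjusted p = 0.55 and 0.056). WNT5A rose from 15.2 ± 4.58 TPM (SD, n = 6) to 26.4 ± 5.38 TPM (SD, n = 9; 0.78, limma adjusted p = 0.020), and had an adjusted p of 0.072 without 8 h A2 and B1.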
